A study of Mus musculus with 2 samples.

Results

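Elastic fibre genes were described in the lungs of newborn mice. The 10 genes, Eln, Fbn1, Fbn2, Fbln5, Lox, Loxl1, Mfap2, Mfap4, Mfap5 and Emilin1, were chosen by name as parts of the fibre and its assembly, and all 10 were matched by gene identifier among the 43346 mouse genes of the tables. Lung RNA of 2 mouse pups of strain B6NCrl was sequenced at an age of 0 days after birth, and each library held both lungs of 1 pup. Replicate 1 came from pup 1 and replicate 2 from pup 3 of the same pregnancy. Extraction used Ambion mirVana and kept RNA above 200 nt, and each library took 10 ng with added spike-in RNAs and a SMARTer low-input kit named by its manual. Sex was not collected, and the labels give both pups 1 donor identifier, so that n = 2 rests on the pup numbers and every SD may be technical. There is 1 group and no comparison between conditions. Pup 1 was set against pup 3 as 1 library against 1 library, with no replicate check and no p-value.

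Elastic fibres consist of a core of cross-linked elastin on a scaffold of microfibrils, whose main component is fibrillin. Cells secrete the elastin precursor, fibulins bring it to the microfibrils, and lysyl oxidases join its lysine side chains into cross-links. In the lung the fibres lie in the walls of airways and vessels and at the tips of the septa that divide the newborn's air spaces, and they give the organ its recoil.

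All 10 genes were expressed in both pups at 5 TPM or more, and their levels ranged widely. Levels are given in TPM, transcript abundance corrected for length and scaled to the same total in each library. A gene is called detected at 1 TPM or more in both pups, which 60.3% of 21474 protein-coding genes reached. Mfap4, which encodes a microfibril-associated glycoprotein of the fibrinogen-related family, stood at 2024 TPM in pup 1 and 1896 TPM in pup 3. Fbn2, which encodes a fibrillin, stood at 5.21 TPM in pup 1 and 5.74 TPM in pup 3. It ranked 9958th among the protein-coding genes by mean level, and the share of them at 5 TPM was not counted. Mfap4 and Eln together outweighed the other genes, with 46.1% and 33.5% of the summed TPM of the 10 as means of the pups. That sum was 4260 TPM in pup 1 and 4246 TPM in pup 3, with a mean of 4253 ± 10.2 TPM (SD, n = 2), or 0.426% and 0.425% of all TPM.

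**Figure D1:**
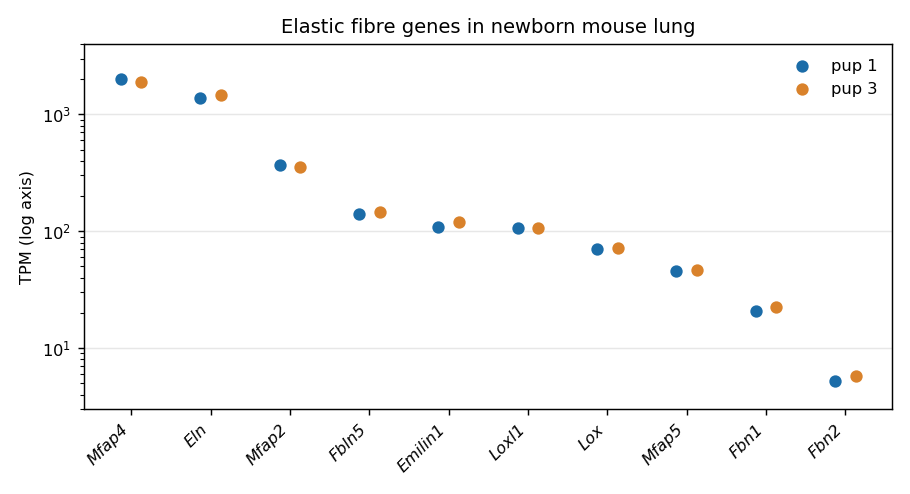
Level of each elastic fibre gene in TPM on a log axis, ordered by mean level, with 1 point for pup 1 and 1 for pup 3. Mfap4 and Eln stood above 1000 TPM in both pups, and Fbn2 was the lowest at 5.21 TPM in pup 1 and 5.74 TPM in pup 3.

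Eln encodes tropoelastin, the precursor of the elastic core. It held 1368 TPM on 109635 expected counts in pup 1 and 1479 TPM on 100841 expected counts in pup 3. Its mean of 1423 ± 78.3 TPM (SD, n = 2) placed it 46th among 21474 protein-coding genes. The gene lies on the minus strand of chromosome 5 (GRCm38, 134702593 to 134747323), and its sole transcript in the tables, Eln-201, has 37 exons in the GENCODE M21 annotation. The tables used a model of 2583 bases, which is exactly the coding length of Eln-201 in GENCODE M21, where the transcript has 3853 bases and 1188 of them follow the coding sequence. The sequence of that model was not compared, and how many reads lie outside it was not tested. With the full length in place of the tables' length and the counts unchanged, the mean of Eln was 942 TPM, still the second of the 10. That value may be too low, since any reads outside the model would be missing from the counts.

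The coding sequence of Eln-201 in GENCODE M21 was searched, and the reads themselves were not examined. Valine-proline-glycine codons (GTNCCNGGN in the reading frame), which recur in the elastic stretches of the protein, occurred 23 times, and 1 other of 21479 protein-coding genes had as many in its longest complete coding sequence. Glycine, valine, alanine and proline codons made up 76.9% of its 860 codons, the highest share among 19264 genes of at least 164 codons, whose median was 24.8%. Lysine codons were 4.42%, and a lysine parted from the next by 2 or 3 alanines, the kind of place where cross-links form, occurred 12 times. The first stretch below (minus strand, chr5:134710138-134711203, codons 613 to 662) is the window of 150 bases with the most valine-proline-glycine codons, in capitals. The second (minus strand, chr5:134718160-134719139, codons 351 to 375) is the 75-base window with the most such lysine pairs, with lysine codons in capitals. Both are GRCm38 transcript sequences from GENCODE M21, 5′ to 3′, and both run across introns that are left out.
Eln-201 elastic stretch: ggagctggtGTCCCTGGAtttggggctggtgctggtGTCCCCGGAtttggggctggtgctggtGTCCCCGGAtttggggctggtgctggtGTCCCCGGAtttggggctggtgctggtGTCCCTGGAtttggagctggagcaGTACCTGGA
Eln-201 cross-link stretch: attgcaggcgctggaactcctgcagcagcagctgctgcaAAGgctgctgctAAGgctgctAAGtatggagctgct

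Several partners of elastin carry codons for arginine-glycine-aspartate, the tripeptide that many integrins bind. A search of the reading frames (AGA, AGG or CGN, then GGN, then GAC or GAT) found it in the leading transcript of 6 of the 10 genes, against 7.26% of 21479 protein-coding genes. The 10 genes were chosen as matrix genes, so the count is a description. Coding length was not matched, and Fbn1 and Fbn2 are long, with 2873 and 2907 codons. For all genes the longest complete coding sequence was searched. The codons were found in Fbn1, Fbn2, Fbln5, Mfap4, Mfap5 and Emilin1, and these letters were not in Eln, Lox, Loxl1 or Mfap2. A match in the reading frame does not say that the site is used. The 5 stretches printed below have 27 bases each, 5′ to 3′, with the 3 codons in capitals. They lie at chr12:101809918-101809944 (Fbln5, minus strand), chr2:125345964-125345990 (Fbn1, minus strand), chr5:30918139-30918165 (Emilin1, plus strand), chr11:61485787-61486045 (Mfap4, plus strand) and chr6:122515368-122520589 (Mfap5, plus strand) of GRCm38. The stretches of Mfap4 and Mfap5 run across an intron that is left out.
Fbln5-201: gaggcttgtCGTGGGGACatgatgtgt
Fbn1-201: atccgacccCGGGGAGACaatggagat
Emilin1-201: ctgcaagccCGTGGGGATgagggttgt
Mfap4-202: tctgggatcCGGGGAGATgctctggag
Mfap5-207: agtggtcaaCGCGGAGATgatgtgcct

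The microfibril genes ranged from the highest level of the 10 to the lowest. Fbn1 encodes fibrillin-1, the main fibrillin of postnatal tissue, and Fbn2 encodes fibrillin-2, which is known for its part in development. Fbn1 stood at 20.8 TPM in pup 1 and 22.7 TPM in pup 3. Fbn1 was thus 3.99 times Fbn2 in pup 1 and 3.95 times Fbn2 in pup 3, a mean log2 ratio of 1.99 ± 0.00966 (SD, n = 2). Fbn1 lies on the minus strand of chromosome 2 (125300594 to 125507993). Both genes are long, with effective lengths near 9753 bases for Fbn1 and 10381 bases for Fbn2 in pup 1. Fbn1 thus drew 6546 and 6042 expected counts in pups 1 and 3 while standing well below Lox in TPM. Eln was 65.8 times Fbn1 in pup 1 and 65.1 times Fbn1 in pup 3, a mean log2 ratio of 6.03. With the full length of Eln-201 and unchanged counts the ratio was 5.44, which may be too low.

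The 3 microfibril-associated genes did not stand together. Mfap4 lies on chromosome 11 (61485431 to 61488900), Mfap2 on chromosome 4 (141010418 to 141015984) and Mfap5 on chromosome 6 (122505845 to 122529290), all on the plus strand. Mfap2 encodes a small glycoprotein that binds fibrillin, and Mfap5 encodes its closest relative. Mfap2 stood at 371 TPM in pup 1 and 352 TPM in pup 3, and Mfap5 at 46.0 TPM in pup 1 and 46.6 TPM in pup 3. Mfap2 was therefore 8.07 times Mfap5 in pup 1 and 7.56 times Mfap5 in pup 3 (mean log2 ratio 2.97 ± 0.066, SD, n = 2). Mfap4 was 5.45 times Mfap2 in pup 1 and 5.38 times Mfap2 in pup 3. The levels of Mfap4 ranked 29th and those of Mfap2 343rd among protein-coding genes, against 2987th for Mfap5.

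Fbln5, the fibulin that tethers elastin to cells and microfibrils, stood at 140 TPM in pup 1 and 145 TPM in pup 3. Its transcript model is long (5829 bases), so its 25839 and 22762 expected counts made up 9.11% of the counts of the 10 genes but 3.34% of their TPM. Fbln5 was 0.102 times Eln in pup 1 and 0.0979 times Eln in pup 3, a mean log2 ratio of -3.32. With the full length of Eln-201 and unchanged counts the ratio was -2.73, where Eln may be too low. Emilin1 encodes a glycoprotein at the boundary of elastin and microfibrils, and it stood at 109 TPM in pup 1 and 121 TPM in pup 3. Emilin1 was 0.0794 times Eln in pup 1 and 0.0817 times Eln in pup 3, so both genes lay far below elastin in each pup. Fbln5 lies on chromosome 12 (101746565 to 101819055, minus strand) and Emilin1 on chromosome 5 (30913402 to 30921277, plus strand).

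The genes of the cross-linking enzymes differed 1.51-fold in pup 1 and 1.47-fold in pup 3. Lox encodes lysyl oxidase, which oxidises lysines of elastin and collagen, and Loxl1 encodes a relative tied to elastin. Lox stood at 70.3 TPM in pup 1 and 72.1 TPM in pup 3. Loxl1 stood at 107 TPM in pup 1 and 106 TPM in pup 3. Lox was 0.660 times Loxl1 in pup 1 and 0.679 times Loxl1 in pup 3, so Loxl1 was the higher in both. Loxl1 lies on chromosome 9 (58287738 to 58313186) and Lox on chromosome 18 (52516067 to 52529867), where Fbn2 lies too (58008623 to 58210487), all on the minus strand.

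**Figure D2:**
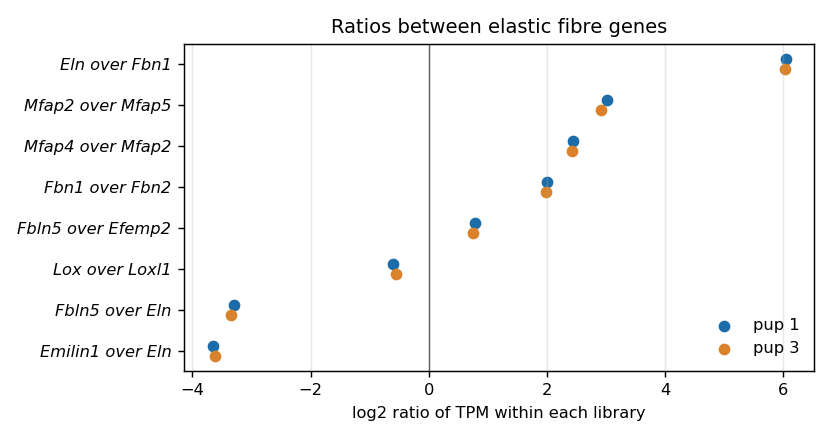
Log2 ratio of the TPM of 2 genes within each library, with 1 point per pup, for pairs of elastic fibre genes and for Fbln5 over the related fibulin gene Efemp2. The points of the pups lay close together in each pair, with the widest gap in Mfap2 over Mfap5 at 3.01 in pup 1 and 2.92 in pup 3.

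From the highest to the lowest mean level the order was Mfap4, Eln, Mfap2, Fbln5, Emilin1, Loxl1, Lox, Mfap5, Fbn1 and Fbn2. The ranges of neighbours over the pups did not overlap. Emilin1 and Loxl1 were the one pair of neighbours that differed by less than their summed SDs (114.72 ± 8.61 and 106.36 ± 0.269 TPM, a difference of 8.36 TPM), so their order is not set by these data. By counts, which grow with transcript length, the order began with Eln at 39.5% and Mfap4 at 33.6% of the counts of the 10 genes as means of the pups. In all, 6 genes reached 100 TPM in both pups, among them Emilin1, which with its full-length transcript alone had a mean of 69.0 TPM. The share of all protein-coding genes at 100 TPM was not counted. Loxl1, the lowest of the 6 by mean, ranked 1300th among 21474 protein-coding genes. Of the 10 genes 4 (Mfap4, Eln, Mfap2 and Fbln5) were among the 1000 highest protein-coding genes. The protein-coding genes nearest to Eln in log2 TPM over the 2 pups were Gpx1, H3f3b and Itm2b. Their levels were 1342 TPM in pup 1 and 1375 TPM in pup 3 for Gpx1, 1476 and 1440 TPM for H3f3b, and 1413 and 1356 TPM for Itm2b, and with 2 samples this likeness is one of level alone. It holds for the deposited TPM of Eln. With the full length of Eln-201 and unchanged counts the mean of Eln was 942 TPM, which may be too low and lies below each of these genes.

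The transcript that led each gene was the same in both pups for 10 of 10 genes. Eln, Fbn2, Fbln5 and Loxl1 had a single transcript in the tables, so their part of this count was fixed in advance. The same count over all genes was not made. Mfap2-201 held 99.1% of the abundance of Mfap2 in pup 1 and 99.3% in pup 3, and Fbn1-201 held 99.8% of Fbn1 in pup 1 and 99.3% in pup 3. The other 4 genes were divided between several models, and their shares are estimates that depend on how reads common to 2 models were split.

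Mfap4-202, with 257 codons, held 86.0% of Mfap4 in pup 1 and 87.7% in pup 3, and Mfap4-201, with 281 codons, held 12.3% in pup 1 and 10.9% in pup 3. The arginine-glycine-aspartate codons were in both. Lox-202 held 75.0% of Lox in pup 1 and 76.5% in pup 3, and in GENCODE M21 it has 411 codons, as has Lox-201. For Lox the 2 models thus have the same coded protein length in GENCODE M21. The shares were estimated with a Lox-201 model of 3604 bases, against 4741 in GENCODE M21, and the sequences were not compared.

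Mfap5 was the gene whose transcript shares differed most between the pups. Mfap5-207, with 164 codons, held 58.3% of the gene in pup 1 and 45.7% in pup 3, and Mfap5-202, with 156 codons, held 26.6% in pup 1 and 41.2% in pup 3. The interval given in the tables, whose level the headers do not state, ran from 23.7 to 28.3 TPM in pup 1 and from 18.4 to 23.0 TPM in pup 3 for Mfap5-207, without overlap. For Mfap5-202 it ran from 8.15 to 15.9 TPM in pup 1 and from 14.3 to 22.8 TPM in pup 3, with overlap. Transcripts with the arginine-glycine-aspartate codons made up 93.8% of Mfap5 in both pups. The effective length of the whole gene, which weighs its models by abundance, was 1103 bases in pup 1 and 996 bases in pup 3. On the log2 scale the deposited TPM of Mfap5 was 0.02 lower in pup 1 while its scaled counts were 0.21 higher there.

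Emilin1 showed how much a short model can weigh. The full-length Emilin1-201 took 89.6% of the counts of the gene in pup 1 and 91.4% in pup 3, but 57.7% of its abundance in pup 1 and 62.2% in pup 3. A model of 601 bases that is not in GENCODE M21 took 8.22% of the counts in pup 1 and 7.04% in pup 3, and was given 39.6% of the abundance in pup 1 and 35.8% in pup 3. Emilin1-201 alone stood at 62.7 TPM in pup 1 and 75.2 TPM in pup 3. Its mean of 69.0 TPM would place Emilin1 just below Lox. It lay below Lox in pup 1 (70.3 TPM) and above Lox in pup 3 (72.1 TPM), so this order is not set by these data.

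**Figure D3:**
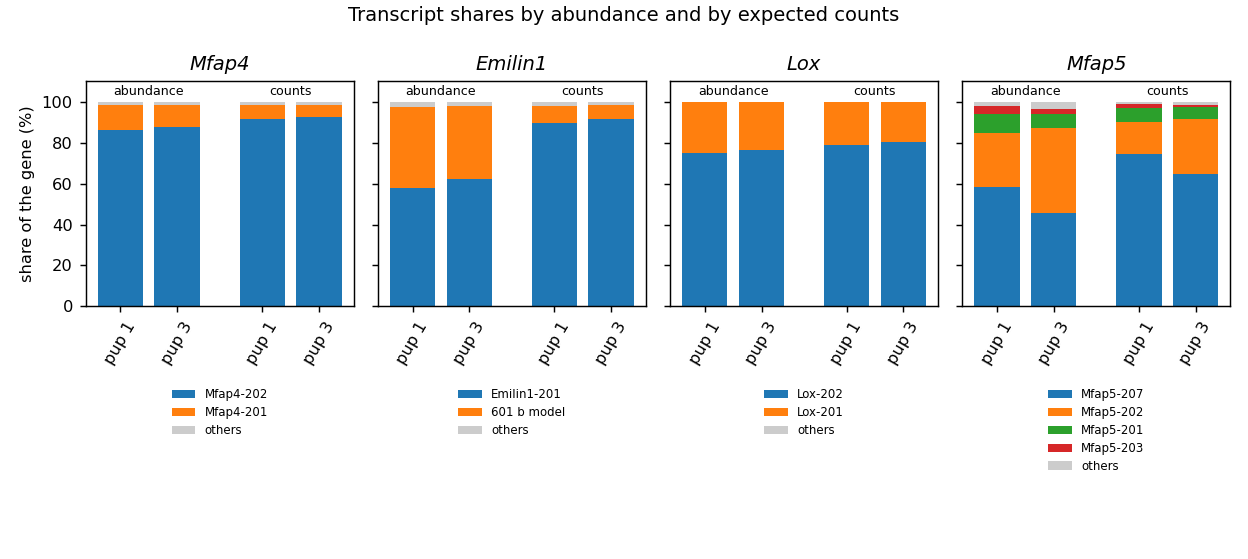
Share of a gene held by each of its transcripts, in percent, as stacked bars for pup 1 and pup 3, by abundance on the left and by expected counts on the right of each panel, for the 4 genes divided between models. The 601-base model of Emilin1 holds 39.6% of the abundance in pup 1 and 35.8% in pup 3 on 8.22% and 7.04% of the counts, and Mfap5-207 holds 58.3% of the abundance in pup 1 and 45.7% in pup 3.

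Between the pups the 10 genes differed little. The rule for a difference asked for a ratio of 2-fold or more after TMM scaling, 50 or more counts in the pups together and a 95% counting interval without 1. Of the 10 genes 0 passed this rule. Of all 15790 tested genes 221 passed, or 1.40% (0.659% higher in pup 1 and 0.741% lower in pup 1), so that a count of 0 among 10 genes lies near the background. The largest ratio was that of Mfap5, with 1637 expected counts in pup 1 and 1274 in pup 3 and a log2 ratio of 0.21 (95% counting interval 0.11 to 0.32). Of 5671 genes with at least as many counts as Mfap5, 81.1% had a log2 ratio no further from 0. The median size of the log2 ratio was 0.0726 in the 10 genes and 0.110 in those 5671.

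Counts this deep resolve differences far below 2-fold, as far as counting error goes. The counting interval left out 1 in 8 of the 10 genes, against 66.1% of the same 5671 genes. Mfap4 and Mfap2 had log2 ratios of 0.17 (0.15 to 0.18) and 0.16 (0.12 to 0.20), both higher in pup 1. Emilin1 had -0.15 (-0.19 to -0.10), lower in pup 1. Eln had -0.03 (-0.04 to -0.02), although its deposited TPM was 0.11 lower in pup 1 on the log2 scale. That gap goes with the scaling, since the deposited TPM lay 0.08 below TMM for all tested genes at the median and spike-in scaling lay 0.14 above it. Spike-in scaling rests on only 317 spike-in counts in pup 1 and 316 in pup 3, and the intervals leave out the counting error of these. The sign was the same under all 4 scalings of the counts and in TPM for 4 genes, Mfap4, Mfap2 and Loxl1 (higher in pup 1) and Emilin1 (lower in pup 1, though at a log2 ratio of -0.00439 with spike-in scaling). Loxl1 had a log2 ratio of 0.09 with TMM scaling but was nearly level in deposited TPM, at 0.00515. Mfap5 and Lox were higher in pup 1 under the 4 count scalings and lower in pup 1 in deposited TPM. Eln, Fbn1 and Fbn2 turned with spike-in scaling, and Fbln5 turned with total counts and in deposited TPM. For these 6 genes no direction is given.

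**Figure D4:**
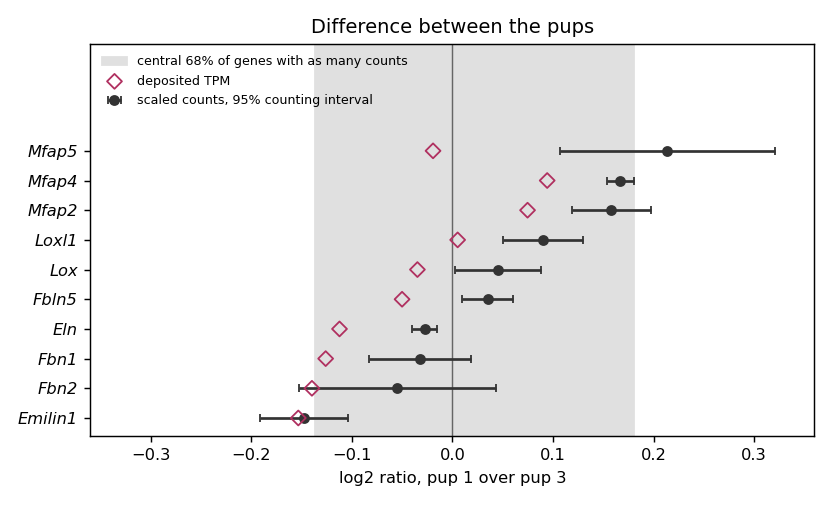
Log2 ratio of pup 1 over pup 3 for each elastic fibre gene, with filled points for TMM-scaled counts, bars for the 95% counting interval, which covers counting error only, and open diamonds for the deposited TPM. The filled points lie between -0.15 (Emilin1) and 0.21 (Mfap5), and the grey band, from -0.14 to 0.18, holds the central 68% of the 5671 genes with at least as many counts as Mfap5.

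Genes around the fibre and other matrix genes were taken as 13 lists of 73 genes, chosen by role. Of these genes, 62 reached 1 TPM in both pups, against 60.3% of all protein-coding genes. The lists were chosen by role, so this count is a description. The latent TGF-beta binding proteins share their build with fibrillin and dock on microfibrils, and all 4 were detected. Ltbp4, which also takes part in elastic fibre assembly, led them at 90.5 TPM in pup 1 and 87.9 TPM in pup 3, and Ltbp3, the second by mean level, stood at 23.4 TPM in pup 1 and 24.1 TPM in pup 3, against 23.8 TPM in pup 1 and 21.3 TPM in pup 3 for Ltbp1. Of 6 other fibulin genes 5 were detected. Efemp2, which encodes fibulin-4, the carrier of lysyl oxidase to elastin, stood at 81.0 TPM in pup 1 and 85.6 TPM in pup 3, so that Fbln5 was 1.72 times Efemp2 in pup 1 and 1.69 times in pup 3. Fbln2 stood at 56.5 TPM in pup 1 and 55.7 TPM in pup 3, and Fbln7 was under 1 TPM in both pups.

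Relatives of the cross-linkers stood lower than Lox and Loxl1, and relatives of Emilin1 stood lower than Emilin1. Loxl2 reached 29.1 TPM in both pups and Loxl3 8.38 TPM in pup 1 and 9.70 TPM in pup 3, while Loxl4 was under 1 TPM. Mmrn2, an endothelial relative of Emilin1, led its list of 4 at 13.5 TPM in pup 1 and 14.4 TPM in pup 3, followed by Mmrn1 at 6.17 and 6.56 TPM, and Emilin3 was under 1 TPM. Of 7 ADAMTS and ADAMTS-like genes tied to microfibrils, 6 were detected. Adamts10 stood at 66.2 TPM in pup 1 and 73.1 TPM in pup 3 and Adamtsl2 at 46.3 TPM in pup 1 and 45.1 TPM in pup 3, both above Fbn1, and Adamts6 was under 1 TPM.

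Genes tied to preparing and reading the fibre were looked at as RNA, which does not show that their proteins act on it. All 8 genes of precursor processing and copper supply were detected, led by P4hb, a subunit of prolyl hydroxylase, at 503 TPM in pup 1 and 498 TPM in pup 3. Pcolce, which encodes an enhancer of procollagen cleavage, was second by mean level at 75.9 TPM in pup 1 and 87.4 TPM in pup 3, and in pup 1 it lay just below Fkbp10 at 76.9 TPM. The 3 genes of the elastin receptor complex were detected, with Ctsa, a lysosomal protease of the complex, at 129 TPM in pup 1 and 127 TPM in pup 3 and Neu1 at 29.0 TPM in pup 1 and 27.5 TPM in pup 3. Of 8 integrin subunits 7 were detected. Itgb1 stood at 303 TPM in pup 1 and 327 TPM in pup 3 and Itgav at 79.8 TPM in pup 1 and 83.4 TPM in pup 3, and Itgb8 was under 1 TPM. The TGF-beta ligands were led by Tgfb2 at 43.6 TPM in pup 1 and 51.0 TPM in pup 3 and Tgfb3 at 18.1 TPM in pup 1 and 20.8 TPM in pup 3.

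Proteases that cut elastin and their inhibitors were uneven. Ctsl stood at 196 TPM in pup 1 and 191 TPM in pup 3, and Mmp14, a membrane metalloprotease, at 132 TPM in pup 1 and 130 TPM in pup 3. Elane, the neutrophil elastase gene, was under 1 TPM in both pups. Cela1, a pancreatic-type elastase gene, was the 1 gene of the 67 tested in these lists that passed the 2-fold rule, a share near that of all tested genes (1.40%), so nothing is read from it about the lists. It had 186 expected counts in pup 1 and 65 in pup 3, a ratio of 2.58 (95% counting interval 1.94 to 3.48) at 5.74 TPM in pup 1 and 2.36 TPM in pup 3. Among the inhibitors Timp3 stood at 183 TPM in both pups and Timp2 at 91.8 TPM in pup 1 and 93.3 TPM in pup 3, while Serpina1a, Serpina1b, Serpina1c, Serpina1d and Serpina1e, close copies that share reads, were all under 1 TPM.

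The 10 genes were higher by sum than 2 lists of other matrix genes, while their median lay below that of the collagens and above that of the proteoglycans. The 5 fibrillar collagen genes summed to 1358 TPM in pup 1 and 1387 TPM in pup 3, with a median gene at 311 TPM, and the 5 proteoglycan genes to 209 TPM in pup 1 and 216 TPM in pup 3, with a median gene at 10.7 TPM. The 2 highest collagen genes were Col3a1 at 542 TPM in pup 1 and 567 TPM in pup 3 and Col1a1 at 421 TPM in pup 1 and 410 TPM in pup 3. Bgn, which encodes biglycan, stood at 158 TPM in pup 1 and 158 TPM in pup 3, and Dcn, which encodes decorin, at 28.9 TPM in pup 1 and 35.2 TPM in pup 3. The median of the 10 elastic fibre genes was 111 TPM and that of all protein-coding genes at 1 TPM or more in both pups was 15.7 TPM. The 8 elastic fibre genes other than Mfap4 and Eln summed to 868 TPM in pup 1 and 871 TPM in pup 3, below the collagens.

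**Figure D5:**
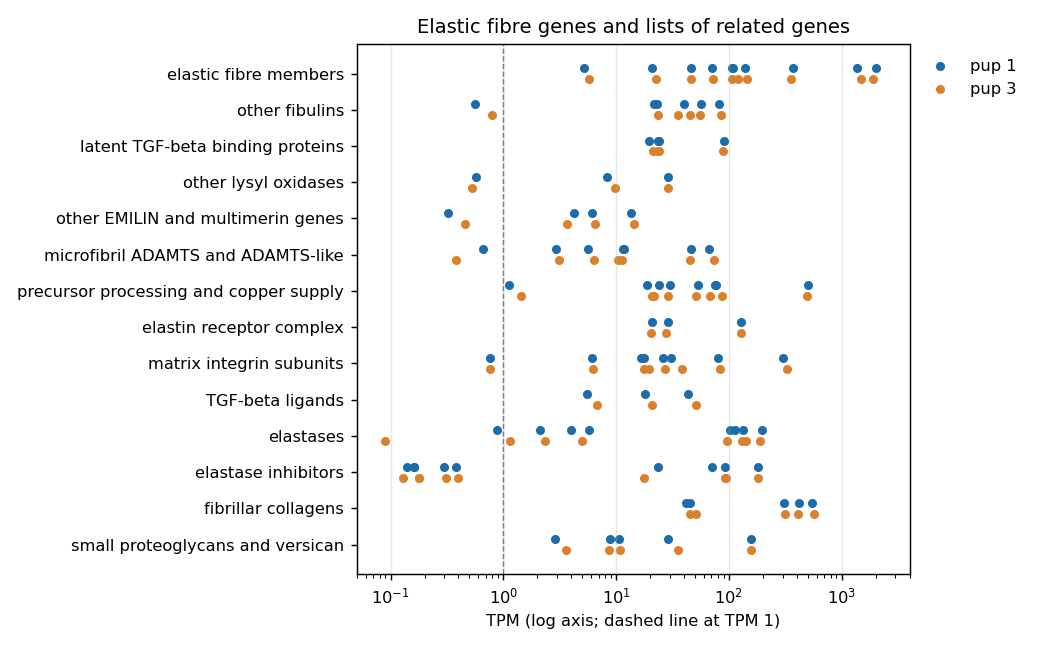
TPM of each gene, on a log axis with a dashed line at 1 TPM, in the elastic fibre set, the lists of related genes and the 2 lists of other matrix genes, with 1 point per gene and pup. The elastic fibre genes ranged from 5.21 to 2024 TPM in pup 1, and 1 point or more lay under 1 TPM in 7 of the related lists.

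The tissue label was checked against markers of the cells that could supply these transcripts. Markers of alveolar epithelium summed to 82135 TPM in pup 1 and 73792 TPM in pup 3, and all 5 were detected, with 3 of 5 higher in pup 1. Sftpc held most of that sum, at 77317 TPM in pup 1 and 68981 TPM in pup 3. All 6 markers each of myofibroblasts, alveolar fibroblasts, adventitial fibroblasts, smooth muscle and pericytes were detected too, as were 60.3% of all protein-coding genes. Alveolar fibroblast markers summed to 1374 TPM in pup 1 and 1311 TPM in pup 3 (2 of 6 higher in pup 1), and adventitial fibroblast markers to 774 TPM in pup 1 and 722 TPM in pup 3 (3 of 6 higher in pup 1). Smooth muscle markers summed to 630 TPM in pup 1 and 554 TPM in pup 3 (5 of 6 higher in pup 1), pericyte markers to 399 TPM in pup 1 and 347 TPM in pup 3 (5 of 6 higher in pup 1), and myofibroblast markers to 533 TPM in pup 1 and 563 TPM in pup 3 (1 of 6 higher in pup 1). Mesothelial markers summed to 901 TPM in pup 1 and 1054 TPM in pup 3, with 0 of 5 higher in pup 1. These counts of markers higher in pup 1 use the deposited TPM, whose log2 ratio had a median of -0.0741 over all tested genes. With TMM scaling the counts were 4 of 5 for alveolar epithelium, 3 of 6 for alveolar fibroblasts and 2 of 6 for myofibroblasts. They were unchanged for adventitial fibroblasts, smooth muscle, pericytes and mesothelium. Cartilage markers summed to 7.50 TPM in pup 1 and 6.66 TPM in pup 3, with 4 of 5 under 1 TPM. The part of such differences in the ratios of Mfap4, Mfap2, Loxl1 and Emilin1 was not tested. In whole lung, fewer cells of a type and less RNA per cell cannot be told apart.

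Genes of the opposite strand overlap some members, and the use of strand in counting is not given in the sources used here. Mapk7 overlaps Mfap4 over 89 bases and had 2709 expected counts in pup 1 and 2525 in pup 3, against 99636 and 80086 for Mfap4. Gm9913 overlaps Fbn1 and had 48.6 expected counts in pup 1 and 22.2 in pup 3. Gm26507 overlaps Fbn2 over 236 bases and had 5 expected counts in pup 1 and 15 in pup 3. The antisense genes Gm30003, over 282 bases of Eln, and AC161119.1, over 1207 bases of Lox, are in GENCODE M21 but have no row under their identifiers in the tables used here. Expected counts were whole numbers for Mfap4, Mapk7, Fbn2 and Gm26507. They were fractional for Fbn1 (6546.39 in pup 1 and 6041.81 in pup 3) and for Gm9913 (48.61 and 22.19). How reads from either strand were assigned in these overlaps was not tested. The posterior SD of the count, which reflects reads shared with other genes, was 0 for 9 of the 10 genes and 6.17 counts in pup 1 and 3.91 counts in pup 3 for Fbn1.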

How the data were processed

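Total RNA-seq tables of 2 newborn mouse lungs were used. The authors deposited expected counts, which are estimated counts of reads per gene and transcript, with TPM and FPKM scaled by effective length and the percent of each gene's abundance held by a transcript, per the file headers. Posterior mean counts and TPM, the SD of the count and TPM bounds (recorded as signal) were also deposited. The assembly is mm10 with annotation M4, per the deposited text files. No source used here gives the aligner or the counting program. The depth was 42189536 expected counts in pup 1, against 37026165 in pup 3, and a count of 0 allows 3 counts, or 0.0711 CPM in pup 1 and 0.0810 CPM in pup 3. Names, coordinates and sequences came from GENCODE M21 (GRCm38). Levels are means ± SD of the deposited TPM (n = 2). Ratios of pup 1 over pup 3 used rounded expected counts, TMM factors from edgeR 4.0.16 (R 4.3.3), a prior count of 0.5 and exact conditional binomial 95% intervals. Intervals and floors cover counting error only, as the reads carry no molecular identifiers. DESeq2 1.42.0 size factors, total counts, spike-in counts, TPM + 1, posterior means, FPKM, other thresholds and each pup alone were alternatives. The 2-fold rule was run on simulated counts with planted changes larger than 2-fold and an assumed spread. Its behaviour at 2-fold or at the real spread between pups was not tested. The 10 genes and all lists were chosen with earlier results of these data known. All 10 are named, and of each related list the 2 highest genes, those past the 2-fold rule and those under 1 TPM in both pups. No protein sequence was used beyond translation of the transcripts.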

Additional observations from a re-analysis of the deposited data

How the results depend on the processing

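All 10 genes stayed at 1 TPM or more, and none passed the 2-fold rule, under every alternative run. The summed TPM of 4253 was 4174 with posterior means, 3204 in FPKM, 4922 with TPM rescaled to protein-coding genes, and 3727 with GENCODE M21 lengths and full-length Emilin1 alone, an alternative chosen after seeing the data. That last alternative left the counts of Eln unchanged, so its part for Eln may be too low. Pup 1 alone gave 4260 and pup 3 alone 4246. The 221 of all tested genes past the rule (104 higher in pup 1, 117 higher in pup 3) became 85 (31 and 54) with TPM + 1, 701 (321 and 380) with no filter on counts and 799 (360 and 439) at 1.5-fold. Spike-in scaling gave 161 and 82, on few spike-in counts. The median log2 ratio of the 10 genes, 0.04, was 0.18 with spike-in scaling and -0.0421 with TPM + 1, which changes its sign. Spike-in scaling moved the median of all tested genes by 0.14 and deposited TPM by -0.08 on the same scale. Why the other values moved, beyond the change of unit, length or threshold itself, was not tested. No paired analysis was possible because there is 1 group. Depth limits ratios of the genes little (their log2 intervals reached 0.0413 to either side at the median), whereas 2 libraries cannot give the spread between animals.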

Other observations

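Other cell types of the lung were read from marker lists that the report does not use. Markers of endothelium in general summed to 1697 TPM in pup 1 and 1710 TPM in pup 3, and those of arteries, whose walls hold elastic fibres, to 275 TPM in pup 1 and 288 TPM in pup 3. All 5 markers of each list were detected. Airway epithelium markers summed to 29235 TPM in pup 1 and 30842 TPM in pup 3. Red cell markers summed to 55545 TPM in pup 1 and 66562 TPM in pup 3. Of these, 0 of 5 were higher in pup 1, both in deposited TPM and with TMM scaling. Cardiac muscle markers summed to 561 TPM in pup 1 and 645 TPM in pup 3, with Ryr2 under 1 TPM in both pups. Of these, 1 of 5 was higher in pup 1, again in deposited TPM and with TMM scaling. The part of these differences in the ratios of the elastic fibre genes was not tested.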
